A study of Mus musculus with 22 samples.

Results

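The Bcl2 family comprises proteins that set the threshold for mitochondrial apoptosis, and 10 of its genes were examined for histone H3K27 acetylation (H3K27ac) in Bcor-mutant myeloid progenitors. The genes were listed by name and family membership, with no threshold on a measured value, and made up 10 of 21938 protein-coding genes. Prosurvival members (Mcl1, Bcl2, Bcl2l1 and Bcl2a1b) bind and restrain their proapoptotic relatives. Among the proapoptotic members, the effectors Bax and Bak1 permeabilise the outer mitochondrial membrane, and the BH3-only genes Bcl2l11 (encoding Bim), Bbc3 (Puma), Pmaip1 (Noxa) and Bid encode proteins that relieve this restraint or activate the effectors. Blood progenitors are known to depend on Mcl1 for survival. H3K27ac marks active promoters and enhancers, so its peaks describe which regulatory regions of these genes were acetylated, and do not measure RNA or protein.

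The series lists 22 samples in 11 groups, of which the 3 H3K27ac libraries of BcorΔE9-10 KL cells were analysed here. KL cells are bone marrow progenitors sorted as Lin-cKIT+Sca-1-, a gate that holds several kinds of committed myeloid progenitor. All 3 libraries came from C57BL/6 mice of the genotype scl-Cre-ERT +; Bcorfl/y, male and thus with a single copy of the X-linked Bcor. Tamoxifen was injected intraperitoneally at 3 to 6 months of age, 1 mg for 5 days, and cells were taken at 20 weeks. The Cre recombinase is driven by a stem cell enhancer of Scl and removes Bcor exons 9 and 10 in stem cells, from which the sorted progenitors descend. The share of sorted cells that carried the deletion cannot be read from peak lists. The methods of the study give 3 mice for this experiment, and the libraries are called replicates 1, 2 and 3. No BcorWT library was analysed here, so nothing below is an effect of the genotype, and the other 19 samples were not used.

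Depth was estimated from the genome-wide background of the peak lists, assuming fragments of 200 bp, at 18 to 19.3 M reads per library. The lists held 23410 to 25963 peaks. TSS peaks (within 2.5 kb of an annotated transcription start site) were present in all 3 libraries at 8 of 8 KL progenitor genes checked (Kit, Gata2, Myb, Runx1, Spi1, Cebpa, Mpo and Cd34), with mean fold enrichments from 5.02 to 9.77. No gene of the mature myeloid (0 of 6), lymphoid (0 of 6), erythroid (0 of 6) or non-haematopoietic (0 of 7) lists had a TSS peak in all 3 libraries. Over all protein-coding genes the share was 43.9%. In at least 1 library, a TSS peak was found at 1 mature myeloid, 1 lymphoid, 2 erythroid and 0 non-haematopoietic genes. Among them, the erythroid Klf1 had a peak in replicates 1 and 3, at 5.29 and 6.07, within the range of the progenitor means. The part of the few peaks at these lists in any result below was not tested. In sorted bulk cells, acetylation of a region in fewer cells and weaker acetylation in each cell cannot be told apart.

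Fold enrichment is the deposited ratio of the fragments stacked at a peak's summit to the local background, with 1 added to each. The control behind this background was not given in the sources used here. The value of a gene is that of its highest TSS peak, and its percentile is its rank among all protein-coding genes with a TSS peak in that library. Fragment numbers at the summits were recovered from the deposited values, and no summit was called on fewer than 8. A gene without a peak had no acetylation called at this depth and local background, which does not show that acetylation was absent. Across all genes with a TSS peak, the median fold enrichment was 9.07 in replicate 1, 9.26 in replicate 2 and 10.7 in replicate 3.

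TSS peaks were found in all 3 libraries at 8 of 10 members, against 43.9% of all protein-coding genes. The members with such a peak were Mcl1, Bcl2 and Bcl2l1 among prosurvival genes, Bak1 among effectors, and all 4 BH3-only genes. Bax had a TSS peak in 1 library and Bcl2a1b in none. Among the 8, mean TSS fold enrichment ran from 6.94 at Bcl2l11 to 26.1 at Mcl1 with a median of 8.71, beside a median of 10.2 over the 9637 genes with a TSS peak in every library.

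**Figure D1:**
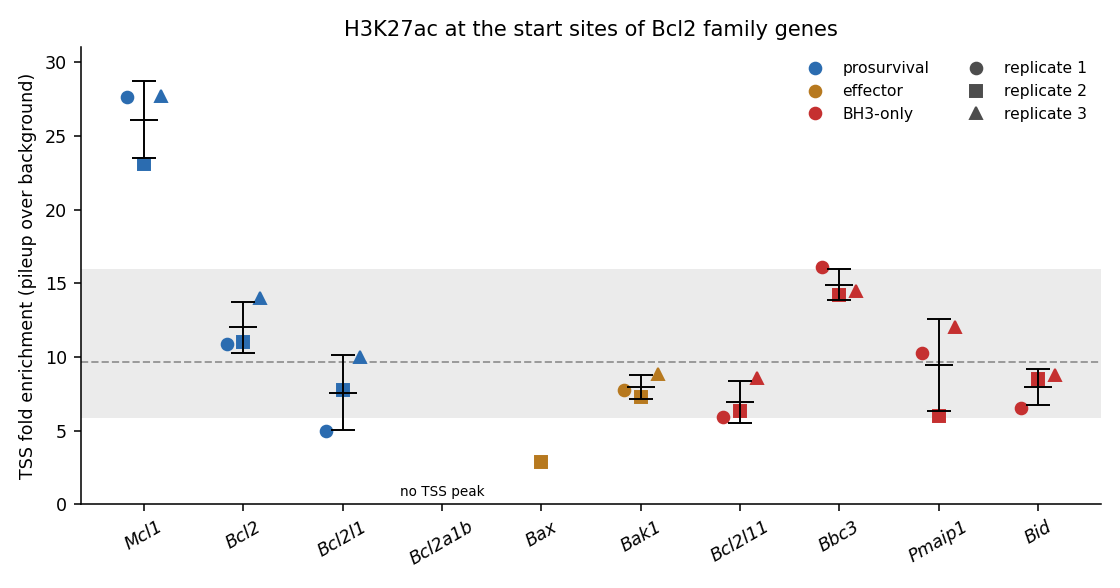
TSS fold enrichment (y axis, pileup over local background) of each gene in replicates 1 (circles), 2 (squares) and 3 (triangles), with the mean and SD as black bars for genes with 3 values. The grey band runs from the lowest lower quartile (5.93) to the highest upper quartile (15.9) of protein-coding genes with a TSS peak in a library. The dashed line is the mean of the 3 medians. Mcl1 lies above the band in every library, Bcl2a1b has no point and Bax has 1, at 2.86.

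Mcl1 is the member with the strongest TSS acetylation. Its fold enrichment was 27.6, 23.1 and 27.7 in replicates 1 to 3 (26.1 ± 2.61, SD, n = 3), on 96, 84 and 102 fragments. These values lay at percentiles 97.7, 96.2 and 96.5, and no other member overlapped them. The summit sat 311 to 492 bp downstream of the nearest annotated start. Acetylation extended over 2120 ± 196 bp (SD, n = 3).

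Mcl1 was also the member with the most shared regions away from start sites. A distal region was one more than 2.5 kb from every annotated start of any gene. Within the 44.4 kb formed by the gene (chr3:95658788-95663176, GRCm38, plus strand) and 20 kb on each side, 6 distal regions had a peak in all 3 libraries, 2 in 2 libraries and 3 in 1 library. The 8 upstream regions ran from 13.1 kb to 4.05 kb before the gene. The strongest of these regions lay at chr3:95650003-95650720, 8.32 kb upstream. Its fold enrichment was 6.16, 6.99 and 8.5 (7.22 ± 1.19, SD, n = 3), below the TSS value of the same library each time. The region 13.1 kb upstream had 6.92, 6.11 and 7.43, and the one 10.2 kb downstream had 5.18, 7.25 and 7.47. The latter was closer to the start of Adamtsl4, at 8.01 kb, than to that of Mcl1. Another region, 7.74 kb upstream, varied more, with 4.72, 4.57 and 7.48.

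The 200 bases around the summit of the strongest Mcl1 region (chr3:95650367-95650566, GRCm38, plus strand) are shown because this region carries the highest distal acetylation of the prosurvival genes. Capitals mark a RUNX-type word (TGTGGT) and an E-box (CAGCTG). RUNX factors and E-box-binding factors act in blood progenitors.
Mcl1 distal: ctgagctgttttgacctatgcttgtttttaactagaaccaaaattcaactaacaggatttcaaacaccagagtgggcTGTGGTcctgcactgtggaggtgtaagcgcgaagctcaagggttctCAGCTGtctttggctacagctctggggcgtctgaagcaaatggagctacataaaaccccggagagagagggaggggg
TGTGGT occurred in 2 of the 15 distal regions of the members held by all libraries, both at Mcl1, or 13.3%. Genome-wide it occurred in 15.5% of 5236 distal regions, a set that also takes in regions held by only 2 libraries. A word match is a description of letters and not of a bound factor.

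Bcl2, the founding prosurvival gene, spans 176 kb (chr1:106538178-106714274, minus strand) and had the next highest TSS value of its class. Fold enrichment was 10.9, 11 and 14 (12 ± 1.76, SD, n = 3) on 39, 43 and 56 fragments, at percentiles 61.4, 61.5 and 67.6. The strongest region (chr1:106713458-106715069) crossed the first exon's start, and its summit lay on different sides of the nearest start: 366 bp downstream in replicate 1, and 335 and 316 bp upstream in replicates 2 and 3. A weaker region over the coding exon, 1.56 kb into the gene, was also found in each library, at 5.17, 3.89 and 3.44.

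The body of Bcl2 held 20 distal regions with its flanks, more than any other member, but few of them recurred. Of the 20, 3 were in all libraries, 3 in 2 libraries and 14 in 1 library. The 14 had fold enrichments of 2.8 to 5.49, on 9 to 19 fragments. All 3 shared regions were intronic, 18.6, 26.2 and 102 kb from the start, with mean values of 4.05 to 4.77. The strongest, at chr1:106612239-106612925, had 5.12, 4.63 and 4.56 (4.77 ± 0.307, SD, n = 3) on 14, 13 and 13 fragments. Its 200 bases (chr1:106612431-106612630, GRCm38, plus strand) are printed as the most distant shared region of the members, and hold none of the words searched.
Bcl2 distal: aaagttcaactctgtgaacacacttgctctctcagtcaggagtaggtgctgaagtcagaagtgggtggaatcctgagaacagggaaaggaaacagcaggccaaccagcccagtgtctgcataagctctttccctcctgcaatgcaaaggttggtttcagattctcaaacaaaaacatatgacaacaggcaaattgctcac
Per length, Bcl2 had 2.78 distal regions in at least 2 libraries per 100 kb, against 18 at Mcl1 and 0.312 over the windows of all protein-coding genes.

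Bcl2l1 encodes Bcl-xL, the prosurvival protein that erythroid cells and platelets rely on. Its TSS fold enrichment was 4.98, 7.73 and 10 (7.58 ± 2.53, SD, n = 3), at percentiles 15.9, 38 and 45.5. The fragments at the summit numbered 22, 33 and 48 over a local background of 3.62, 3.4 and 3.8, which is higher than the genome-wide 1.93 to 2.02. Replicate 1 was thus lowest and replicate 3 highest, a wider relative spread than at Mcl1 or Bcl2. The gene has 9 annotated starts, and the summit fell within 33 bp of one of them in each library. The covered length, 560 ± 134 bp, was the shortest among members with a peak in every library.

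Away from its starts, Bcl2l1 had 2 distal regions and both were in all 3 libraries. They adjoined one another in an intron, 42.3 and 43.1 kb from the start, at chr2:152788965-152789939 and chr2:152788471-152788898. Both lay closer to the start of Cox4i2, at 33.9 and 33.4 kb, than to that of Bcl2l1. The first had fold enrichments of 5.78, 6.43 and 8.47 (6.89 ± 1.4, SD, n = 3) and the second 6.71, 3.71 and 5.94 (5.45 ± 1.55). In replicate 1 both exceeded the TSS value of 4.98, while in replicates 2 and 3 both lay below the TSS value. The sequence around the summit of the first (chr2:152789362-152789561, GRCm38, plus strand) is shown as the strongest distal intronic region of a prosurvival gene. No word searched was found in it.
Bcl2l1 distal: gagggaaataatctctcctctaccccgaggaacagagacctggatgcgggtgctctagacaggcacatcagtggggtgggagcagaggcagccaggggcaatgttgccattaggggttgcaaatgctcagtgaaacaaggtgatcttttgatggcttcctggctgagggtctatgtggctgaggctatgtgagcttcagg
A further shared region in the window, 16.6 kb upstream, was the TSS peak of Tpx2, a spindle assembly gene, at 3.82, 6 and 7.7.

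Bcl2a1b encodes an A1 protein, a prosurvival member best known in mature myeloid and lymphoid cells. No peak was found at its start or at any distal position within 48.6 kb. The one region in that window, 12.1 kb downstream, was the TSS peak of Mthfs, a folate enzyme gene, with 18.8, 21.5 and 22.8 (21 ± 2.03, SD, n = 3). Bcl2a1b belongs to a cluster of near-identical copies, and 50.5% of the 75-base words (the read length) within 2.5 kb of its start occurred once in the genome, against 93.3% to 100% at the other 9 members. Its copies Bcl2a1a and Bcl2a1d, with 56.2% and 49.4% unique words, also had no TSS peak. Low acetylation and loss of reads that fit several copies cannot be told apart at these starts.

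The promoter of Bcl2a1b upstream of its first annotated exon (RefSeq promoter, GRCm38.p6, chr9:89199023-89199208, plus strand) is shown as that of the prosurvival gene without a peak. Capitals mark an AP-1-type word (TGANTCA), found in 7.81% of 32851 RefSeq promoters. Among the member promoters searched only this one had it, and none was searched for Pmaip1.
Bcl2a1b promoter: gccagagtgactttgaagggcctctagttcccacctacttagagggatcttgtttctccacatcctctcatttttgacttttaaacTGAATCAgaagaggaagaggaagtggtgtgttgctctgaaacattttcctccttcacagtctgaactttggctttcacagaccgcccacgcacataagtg
Over the 300 bases of the full promoter, its ratio of observed to expected CpG was 0.247, at percentile 35.4 of all promoters. Among the member promoters searched, only 1 of the 3 promoters of Bcl2l1 was lower, at 0.0558.

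The effectors had little acetylation apart from the start of Bak1. Bak1 had TSS fold enrichments of 7.77, 7.25 and 8.85 (7.96 ± 0.814, SD, n = 3) on 29, 28 and 35 fragments, at percentiles 34 to 40.2. This single region (chr17:27027537-27028596) was the only one in its 49.2 kb window. It also lies within 2.5 kb of a start of Ggnbp1 on the other strand, so its acetylation cannot be assigned to one gene. Bax was at the edge of detection: a TSS peak was called in replicate 2 only, at 2.86 on 11 fragments, percentile 0.332, with a −log10 q of 1.58. The Bax window held 3 other regions, all at starts around Ftl1, the ferritin light chain gene 5.69 to 7.57 kb downstream, the strongest at 9.59, 10.3 and 7.87. Neither effector had a distal region in any library. At least 99.7% of the 75-base words at both starts were unique.

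Bbc3, whose product Puma is a p53 target, had the strongest TSS acetylation of the proapoptotic genes. Its fold enrichment was 16.1, 14.2 and 14.5 (14.9 ± 1.04, SD, n = 3) on 55, 50 and 55 fragments, at percentiles 82.4, 76.6 and 69.5. These values lay below every Mcl1 value and above every Bcl2 value. Acetylation was also broad: TSS peaks covered 3160, 3411 and 3510 bp, at percentiles 98.3 to 98.6 of protein-coding genes with a TSS peak in that library. Length depends in part on the number of starts, of which Bbc3 has 4. Besides the main region 1.43 kb into the gene, regions 3.94 and 5.4 kb into the gene were present in each library, the latter at 8.89, 11.9 and 12.4.

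A single distal region of Bbc3 was shared by all libraries (chr7:16295086-16295892, 13.2 kb upstream), with 6.09, 5.96 and 7.58 (6.54 ± 0.897, SD, n = 3). It lay 8.29 kb from the start of Ccdc9 and thus closer to that gene. A promoter of Bbc3 inside the main region (RefSeq, GRCm38.p6, chr7:16309333-16309582, plus strand, the bases before the start) and the distal summit (chr7:16295113-16295312, GRCm38, plus strand) are printed together, as the 2 kinds of acetylated sequence at the strongest proapoptotic gene. Capitals in the distal sequence mark a C/EBP-type word (TTGCNNAA). It was found in 2 of the 15 member distal regions held by all libraries (13.3%). Genome-wide, 6.82% of distal regions held by at least 2 libraries had it.
Bbc3 promoter: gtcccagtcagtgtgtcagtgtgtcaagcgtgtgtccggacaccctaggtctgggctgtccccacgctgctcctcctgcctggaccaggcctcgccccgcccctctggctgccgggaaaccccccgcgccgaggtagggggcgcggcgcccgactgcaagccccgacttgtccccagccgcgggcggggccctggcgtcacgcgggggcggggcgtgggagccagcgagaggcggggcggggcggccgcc
Bbc3 distal: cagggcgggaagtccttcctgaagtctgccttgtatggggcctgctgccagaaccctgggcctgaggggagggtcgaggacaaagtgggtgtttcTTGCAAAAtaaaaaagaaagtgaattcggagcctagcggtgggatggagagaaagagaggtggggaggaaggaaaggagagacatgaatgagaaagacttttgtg
The promoter stretch is 76.4% G and C and the distal stretch 52.5%.

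Pmaip1, encoding Noxa, which neutralises Mcl1 protein, had the largest SD between libraries, although relative to the mean Bcl2l1 spread as widely. Its TSS fold enrichment was 10.3, 6 and 12 (9.45 ± 3.1, SD, n = 3) at percentiles 58.2, 24.3 and 57.9. The low value of replicate 2 stood on 29 fragments over a local background of 4, against 35 and 43 fragments over 2.48 and 2.6 in replicates 1 and 3. Both a smaller pileup and a higher background thus accompanied it. Downstream, between 12.7 and 19.4 kb from the start, lay 7 distal regions, 3 of them in all libraries and 1 in 2. The nearest had the highest distal fold enrichment of any member: 7.36, 7.94 and 9.25 (8.18 ± 0.97, SD, n = 3). In replicate 2 this exceeded the gene's own TSS value. The others had 5.17, 7.36 and 6.8 at 17.1 kb, and 4.44, 5.91 and 5.9 at 19.4 kb.

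Bid and Bcl2l11 had moderate TSS values. Bid, which links death receptors to mitochondria when cleaved by caspases, had 6.54, 8.48 and 8.8 (7.94 ± 1.22, SD, n = 3), at percentiles 30.9, 43.8 and 38. A start of the gene Gm44260 also lies within 2.5 kb of this region, so its acetylation cannot be assigned to one gene. Bcl2l11, whose product Bim binds all prosurvival members, had 5.96, 6.32 and 8.54 (6.94 ± 1.4), at percentiles 25.3, 27 and 36.2. Acetylation at Bcl2l11 was split into 3 regions over its first 1.7 kb, each in all libraries and with mean values of 5.53, 5.2 and 6.94. Bcl2l11 had 3 distal regions and Bid 2, and each was found in 1 library only. Inside the Bid intron, 2 further regions 8.23 and 8.89 kb from its start were shared by all libraries (means 4.97 and 4.26), but lay within 2.5 kb of the start of the noncoding gene Gm17812 and were therefore not counted as distal.

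**Figure D2:**
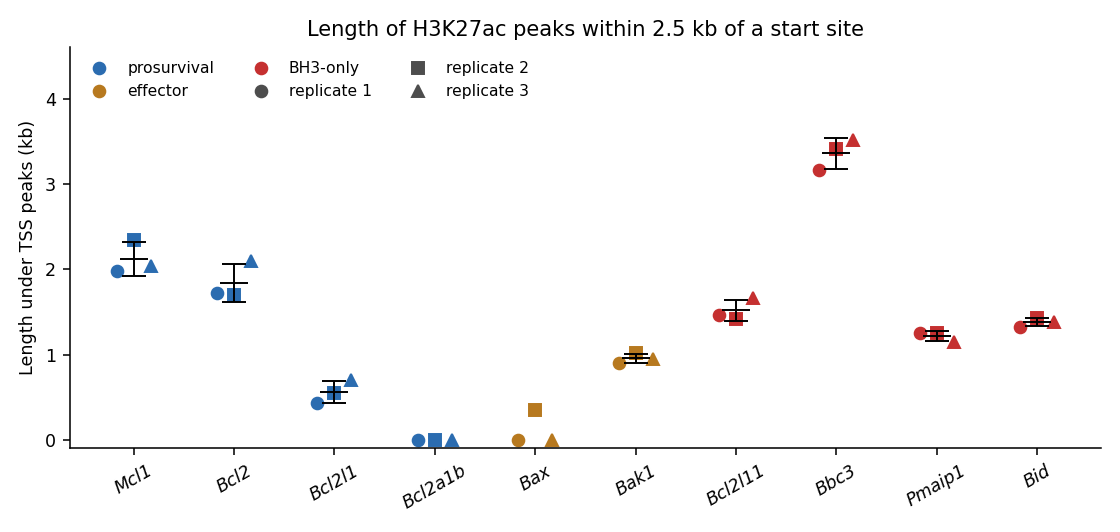
Length under TSS peaks (y axis, kb) of each gene in replicates 1 (circles), 2 (squares) and 3 (triangles), coloured by class, with the mean and SD as black bars for genes with a peak in every library. Bbc3 covers the longest stretch in each library (3160 to 3510 bp), ahead of Mcl1 (1983 to 2345 bp), and Bcl2a1b stands at 0.

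The 8 members with values in every library were then ordered by mean TSS fold enrichment: Mcl1, Bbc3, Bcl2, Pmaip1, Bak1, Bid, Bcl2l1 and Bcl2l11. Of the 7 pairs of neighbours, 2 had ranges that did not overlap, Mcl1 over Bbc3 by 11.2 ± 2.13 and Bbc3 over Bcl2 by 2.95 ± 2.37 (SD, n = 3). Bcl2 lay above Pmaip1 in 3 of 3 libraries, by 2.52 ± 2.27, with overlapping ranges. The other 4 pairs were in order in 2 of 3 libraries, and Bak1 and Bid differed by 0.0173 ± 1.23. In exact sign-flip permutation tests over the 3 libraries (two-sided), p was 0.25 to 0.75 and 0.583 to 0.75 after Benjamini-Hochberg adjustment over the 7 pairs. With 3 libraries p cannot go below 0.25, so no pair could pass 0.05. The order was taken from the same values as the test, so each mean difference was positive by construction.

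Prosurvival and proapoptotic members were compared by their median TSS percentile, a gene without a peak counting as 0. The medians were 38.7, 49.7 and 56.5 for prosurvival and 35.5, 30.5 and 38.1 for proapoptotic members. The difference, prosurvival minus proapoptotic, was 3.16, 19.3 and 18.4 percentile points (13.6 ± 9.06, SD, n = 3), positive in 3 of 3 libraries and smallest in replicate 1. With only 4 and 6 genes the value turned on single members: it was 28.8 without Bcl2a1b, a choice made after the data were seen. Ranked by the length of TSS peaks the sign changed, to −14.1. The classes overlapped, since Bbc3 exceeded both Bcl2 and Bcl2l1, and Bax and Bcl2a1b had least in each class.

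A distal region in all 3 libraries was present at 5 of 10 members (Mcl1, Bcl2, Bcl2l1, Bbc3 and Pmaip1), against 7.95% of all protein-coding genes, although the window of a member depends on gene length. Prosurvival members had 16 distal regions in at least 2 libraries, or 4 per 100 kb of window, and proapoptotic members had 5, or 1.5 per 100 kb. Among prosurvival members 8 of the 16 were at Mcl1, 6 at Bcl2, 2 at Bcl2l1 and 0 at Bcl2a1b. Among proapoptotic members 4 of the 5 were at Pmaip1 and 1 at Bbc3. Regions without overlap were counted separately however close they lay, as were the 2 adjoining ones at Bcl2l1. The part of such splitting in these counts was not tested. Peaks with a −log10 q of at least 5 left 6 and 4 such regions, and within gene bodies alone there were 8 and 0. Counting as distal the regions near starts of noncoding transcripts raised the proapoptotic number to 9, an alternative added after the data were seen.

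**Figure D3:**
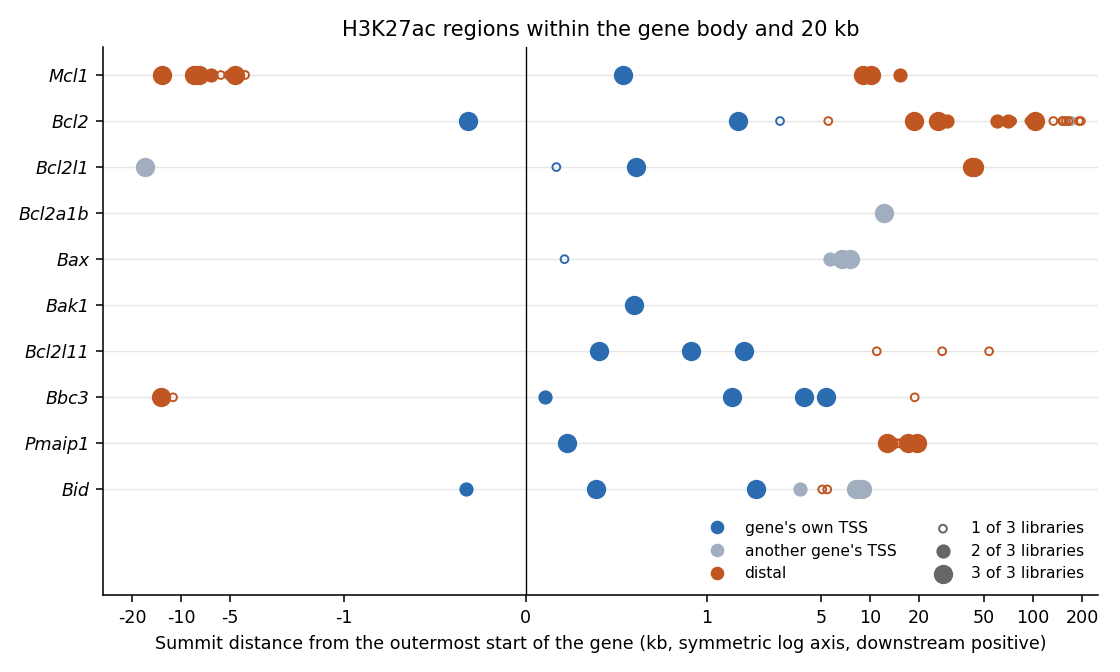
Each H3K27ac region in the window of a gene by the distance of its summit from the outermost start of the gene (x axis, kb, symmetric log scale, downstream positive). Colours give the kind of region, and symbols the number of libraries that held it. The distal regions of Mcl1 lie on both sides within 15.3 kb, those of Pmaip1 lie downstream, and those of Bcl2 run along the gene to 196 kb.

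**Figure D4:**
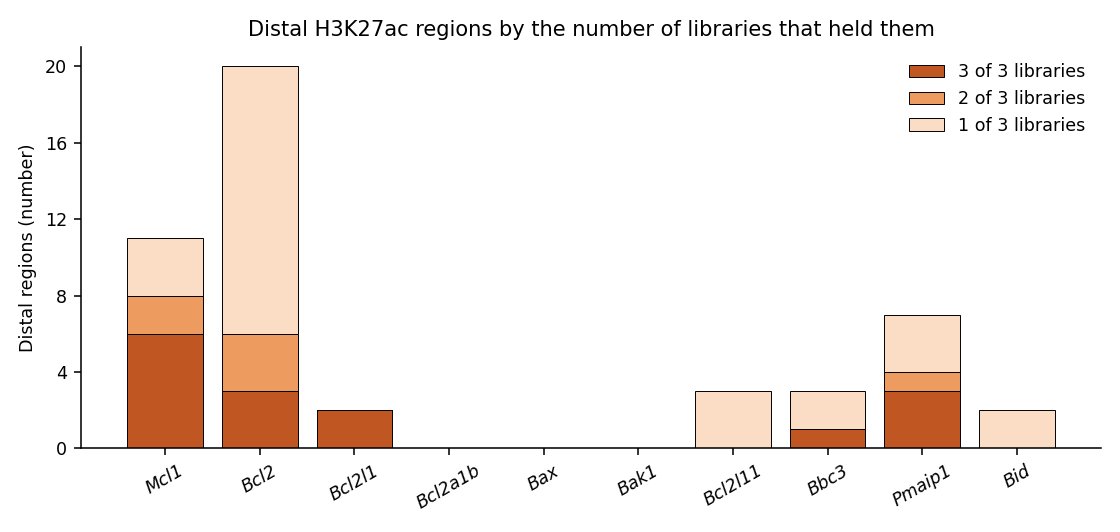
Number of distal regions (y axis) per gene, split by whether 3, 2 or 1 of the libraries held them. Bcl2 has 20, of which 14 were in 1 library, Mcl1 has 11, of which 6 were in all 3, and Bcl2a1b, Bax and Bak1 have none.

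In all, 78 regions fell in the 10 windows: 19 at the members' own starts, 11 at starts of other genes and 48 distal. Of these, 14, 6 and 15 were in all 3 libraries. The 15 shared distal regions had mean fold enrichments of 3.73 to 8.18, and 15 of 15 lay below the mean TSS value of their gene. Replicate 3 gave the highest value in 9 of the 15. Its median TSS fold enrichment over all genes with a TSS peak, 10.7, was also the highest, against 9.07 and 9.26 in replicates 1 and 2.

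**Figure D5:**
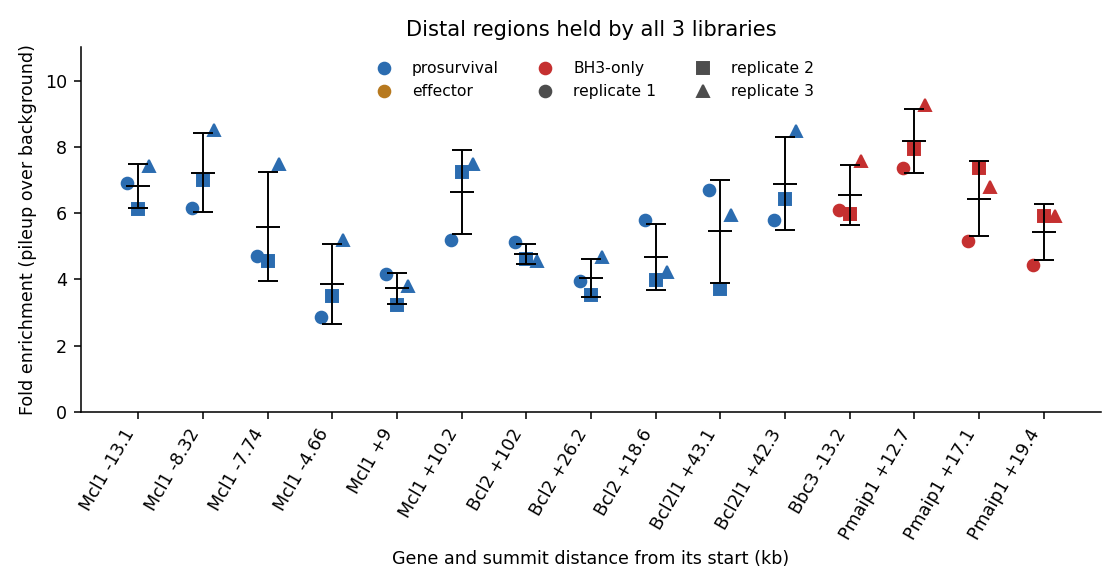
Fold enrichment (y axis, pileup over local background) of the 15 distal regions that all libraries held, labelled by gene and summit distance from its start in kb. Circles, squares and triangles are replicates 1, 2 and 3, and black bars the mean and SD. Pmaip1 +12.7 is highest at 8.18 and Mcl1 +9 lowest at 3.73.

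Super-enhancers, long clusters of acetylated regions, were called by stitching neighbouring peaks and ranking the clusters by signal. They were assigned in at least 2 libraries to 2 of 10 members, Mcl1 and Bbc3, against 8.26% of protein-coding genes. The paper used Homer and reports fewer super-enhancers in at least 2 samples than were called in any library here. The calls below are therefore not the super-enhancers of the paper. The Mcl1 cluster spanned 28.7, 23.6 and 28.7 kb and ranked 78, 28 and 107 of 11779, 12327 and 11525 stitched regions, within the 1383, 1083 and 1190 above the threshold. For Bbc3 the extent depended on the library: 5.18 kb in replicate 1 (rank 716), but 41.5 and 41.2 kb in replicates 2 and 3 (ranks 77 and 65), where peaks upstream were joined to it. The longer clusters also held the starts of 2 other protein-coding genes, Ccdc9 and Inafm1, while the Mcl1 cluster and the short Bbc3 cluster of replicate 1 held none. Pmaip1 passed in replicate 1 alone, at rank 1046, and missed at ranks 1232 and 1300 in the other libraries. Bcl2 ranked 1664 to 2233 and was never called.

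Further family members and genes of the pathway were counted for context. In the wider family, 7 of 15 genes had a TSS peak in all 3 libraries and 8 had none in any. That share is near the 43.9% of all protein-coding genes. The highest was Bcl2l13, a mitochondrial outer membrane protein gene, at 42.2 ± 1.05 (SD, n = 3), followed by the mitophagy receptor gene Bnip3l at 16.1 ± 1.03 and the prosurvival Bcl2l2 at 10.2 ± 1.41. The lowest with peaks were Bmf (4.34 ± 0.924), Bcl2l12 (4.67 ± 0.439) and Bnip3 (5.29 ± 2.15). Downstream and upstream of the family, 10 of 10 pathway genes had a TSS peak in every library, against 43.9% of all protein-coding genes. Vdac2, a channel of the outer membrane that holds Bak1 protein, had 30.7 ± 3.39, and was followed by Diablo (15.5 ± 2.6) and Apaf1 (13.8 ± 2.95), which promote caspase activation. Casp9, the initiator caspase of this pathway, was lowest, at 5.13 ± 2.06.

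RefSeq promoters were matched for 9 of 10 members, with 14 promoters in all. No entry was used for Pmaip1. The ratio of observed to expected CpG exceeded the median of all promoters, 0.384, in at least 1 promoter of every matched member but Bcl2a1b, including Bax (0.771), which had 1 weak peak. An ETS word (CCGGAAG) occurred in 3 of the 14 (21.4%; Mcl1, Bcl2l1 and Bcl2l11) and in 8.86% of all promoters. A p53 half-site occurred in 1 of the 14, at Bax, and in 8.36% of all. Words were searched on both strands, 200 bases around distal summits and 300 bases of promoters, and the TATA box (TATAAA) was found in 0 of the 14 and in 13.6% of all promoters.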

How the data were processed

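ChIP-seq peak lists from 3 libraries were used. Per the labels' processing notes and the methods, the authors trimmed reads with cutadapt 1.7, mapped them with Bowtie2 to GRCm38, took out duplicates and ran MACS2 2.1.1 on each library on its own. The control and caller settings were not given in the sources used here. The deposited fold enrichment is the ratio of pileup to local background defined above and is not scaled between libraries. The deposited −log10 p-value and −log10 q-value were used to filter, and the score deposited by the authors was not used.

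Rows repeating an interval were counted once, with the highest value. Fragments were recovered from fold enrichment and p-value, which solved 100% of rows (1.03% to 1.97% after shuffling p-values), assuming fragments of 200 bp. Intervals of counting error were not computed, and duplicates had been removed without molecular identifiers. Gene models were GENCODE M21, and coordinates count from 1. Peaks overlapping by 1 bp in different libraries formed a region. Super-enhancers were stitched regions past the point of slope 1 of the ranked curve, by summed fold enrichment times length, and were assigned to the closest protein-coding TSS or those inside. A TSS shared by genes counts for each. Computation used Python 3.11.15, numpy 2.4.6, pandas 2.3.3, scipy 1.17.1, numba 0.67.0 and matplotlib 3.10.9, tested on simulated data. The comparison of neighbours used an exact sign-flip permutation test.

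The members and lists were chosen with earlier results of these data known. Named are the 10 members, up to 3 highest and 3 lowest genes of the wider family and pathway lists, other genes with a TSS peak inside a member's window, and the 10 strongest distal regions held by all libraries. The values of 1 gene of the pathway list are not reported here. The Bcl2 region and single genes outside this rule were chosen after their values were seen. Alternatives were a stricter q, TSS windows of 1 and 5 kb, other flanks, overlaps, rankings and stitching, and leaving out each library. Promoter bases lying in annotated exons were not printed.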

Additional observations from a re-analysis of the deposited data

How the results depend on the processing

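Peak lists give no value below their threshold, so acetylation on fewer than 8 fragments was out of reach, and fold enrichment depends on the local background as well as on the pileup. With 1 group and 3 libraries the spread is between libraries only. Between groups, no paired analysis was possible because every library analysed belongs to the same group. Neighbouring members, and the prosurvival and proapoptotic medians, were compared by differences taken within each library.

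The difference in median TSS percentile, prosurvival minus proapoptotic, was 13.6, turned to −14.1 when genes were ranked by the length of their TSS peaks, and moved to 28.8 without Bcl2a1b. The number of prosurvival distal regions in at least 2 libraries went from 16 to 6 with a −log10 q of at least 5 and to 8 within gene bodies. Within gene bodies the proapoptotic number went from 5 to 0 and the members with a distal region in all libraries from 5 to 2. The proapoptotic number rose to 9 when only starts of protein-coding transcripts set regions apart. The cause was not tested where the setting does not itself remove regions.

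Leaving out 1 library gave differences in percentile of 10.8 to 18.8, prosurvival regions of 12 to 14 and proapoptotic regions of 4 to 5. Neighbouring pairs in order in every library used numbered 4 to 5, against 3, with 5 when replicate 2 was left out and fewer libraries had to be in order. The members with a TSS peak stayed at 8, those with a distal region at 5 and those with a super-enhancer at 2. The count of 8 members with TSS peaks and that of 2 with super-enhancers did not change under any other setting run.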
